A study of Mus musculus with 1037 samples.

Results

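The expression of 48 genes of the lysosome was described in single cells of the mouse hair follicle, across late anagen and 2 stages of catagen. The genes were chosen by name and matched to the count table by Ensembl identifier, which found all 48 among 21604 protein-coding genes. They comprised 22 hydrolases, 4 activators or other proteins of the lumen, 10 membrane proteins, 3 sorting receptors, 6 subunits of the proton pump and 3 regulators. Cells with 2000 or more detected genes were used, which left 463 of 1035 cells with counts and a group.

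The cells came from wild type mice and were sorted from dissociated skin as hair follicle epithelial cells. LOS held cells of the lower outer root sheath (ORS) and MOS and UOS held cells of the upper-middle ORS, all at AnaVI, the end of the growth phase. The CatVI groups were upper ORS cells of postnatal day 17. They lay on plates titled phagocytic alive (plates 1 and 2), phagocytic apoptotic (plate 5) and non-phagocytic apoptotic (plate 6). OSalive and OSapop were the alive and apoptotic sorts of the upper ORS at CatVII. The sort kept cells with CD34 and integrin α6 on their surface. In catagen these were stem cells with high CD34 and progenitors with low CD34. Cells with the markers of immune, endothelial, fibroblast and melanocyte lineages were left out. Cells with Sca1 were also left out, and annexin V marked the apoptotic cells. LOS came from the dermal fraction of the skin and the upper cells from the epidermal fraction. Cells of 3 to 6 mice were pooled for each stage and no animal was named, so each group was 1 sample. There were no replicates, and no test between groups was made. Stage, region, sort, plate and library batch cannot be told apart. On the plates titled non-phagocytic alive (3 and 4), 0 cells passed.

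The lysosome is the acidic compartment in which material taken up by a cell, such as an apoptotic corpse, is broken down. Its lumen holds hydrolases for sugars, lipids, proteins and sulfated chains. Mannose 6-phosphate receptors and sortilin deliver these enzymes from the Golgi, and a vacuolar ATPase pumps in the protons that they need. The transcription factors TFEB and TFE3 switch on many of these genes through a short element with the core CACGTG. The study compared phagocytic, living and dying cells of the regressing follicle, and corpses that a cell has engulfed end in this compartment.

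Expression is given as CPM, the counts of a gene summed over the cells of a group per 1000000 counts of protein-coding genes, with exact 95% Poisson limits in brackets where shown. These limits and those of ratios treat each read as an independent count and leave out the spread over cells and animals. The reads carried no molecular identifiers, so amplified copies were counted as reads. The limits are therefore too narrow and are at best a lower bound on the error. Coding counts per group ranged from 328232 in plate 6 to 47720291 in OSalive, and the cells that passed from 12.3% of 73 in plate 2 to 83.6% in UOS. Of the gene counts, 16.6% to 21.1% were coding. The deepest cell gave 28.1% of the coding counts of LOS and 32.1% of those of plate 2, against 1.95% in OSalive. Of the 10 ORS and bulge markers, all were detected in each group, with a summed level from 5395 CPM in LOS to 29848 CPM in plate 5. The sum of the immune, melanocyte, fibroblast and endothelial markers was 8267 CPM in LOS, 1841 in UOS, 1679 in plate 2, 1503 in OSalive and 1289 in OSapop, and from 59.8 to 398.9 in the other groups. In LOS, 13 of 39 cells had more counts of the markers of other cell types than of ORS markers, and they held 57% of its coding counts. Some cells of a group carried the same well label as another cell of it, for 40 labels in UOS, 68 in OSalive and 52 in OSapop.

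Promoter windows, from 250 bases before to 50 after the annotated start, were at hand from RefSeq (GRCm38.p6) for 40 of the 48 genes. The letters CACGTG, read on both strands, occurred in 12 of the 40, or 30%, against 9.63% of 15300 genes with a window. The longer TCACGTG, which contains it, occurred in the same 12 genes, against 5.43% of all genes. By role, the 12 were 6 of 20 hydrolases (Arsa, Gaa, Gla, Glb1, Naglu and Sgsh), 3 of 8 membrane proteins (Lamp1, Mcoln1 and Clcn7), 2 of 4 pump subunits (Atp6v0d1 and Atp6v1a) and the sorting receptor Igf2r. The windows of Tfeb, Tfe3 and Rab7 held no match, and neither did those of the 4 activators or other lumenal proteins. The window of Lamp1 held 4 matches, the most of any of these genes. Sites of 30 bases around a match are shown for 1 or more genes of each role that had one. They run 5′ to 3′ on the gene's strand with CACGTG in capitals, at their GRCm39 positions.
Lamp1, first match, chr8:13209088-13209117, + strand: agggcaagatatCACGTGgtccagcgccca
Lamp1, last match, chr8:13209134-13209163, + strand: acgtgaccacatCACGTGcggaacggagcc
Mcoln1, chr8:3550436-3550465, + strand: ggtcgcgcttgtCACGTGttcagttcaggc
Mcoln1, chr8:3550462-3550491, + strand: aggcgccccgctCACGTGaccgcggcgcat
Glb1, chr9:114230086-114230115, + strand: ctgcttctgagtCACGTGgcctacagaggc
Sgsh, chr11:119246348-119246377, - strand: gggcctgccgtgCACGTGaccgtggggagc
Igf2r, chr17:12988583-12988612, - strand: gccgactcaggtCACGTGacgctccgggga
Atp6v1a, chr16:43959736-43959765, - strand: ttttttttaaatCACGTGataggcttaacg
The match shown for Igf2r is the full palindrome GTCACGTGAC. A match is a description of the letters and does not show that a factor binds there.

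The 48 genes together took a small and similar share of the transcriptome in all groups. They held 0.626% of the coding counts in LOS, 0.704% in MOS and 0.651% in UOS. The share was 0.675% in plate 1, 0.588% in plate 2, 0.704% in plate 5 and 0.534% in plate 6. OSalive had the highest share, 0.770%, and OSapop had 0.698%. Cell by cell, the median was 0.683% in UOS with quartiles of 0.574% and 0.784%, and 0.752% in OSalive with quartiles of 0.624% and 0.892%, so most cells of both groups overlapped. In OSapop the median was 0.704%, with quartiles of 0.579% and 0.822%. With each cell thinned to 10000 coding counts, a median of 17 of the 48 genes was detected per cell in UOS and 18 in both CatVII groups.

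**Figure D1:**
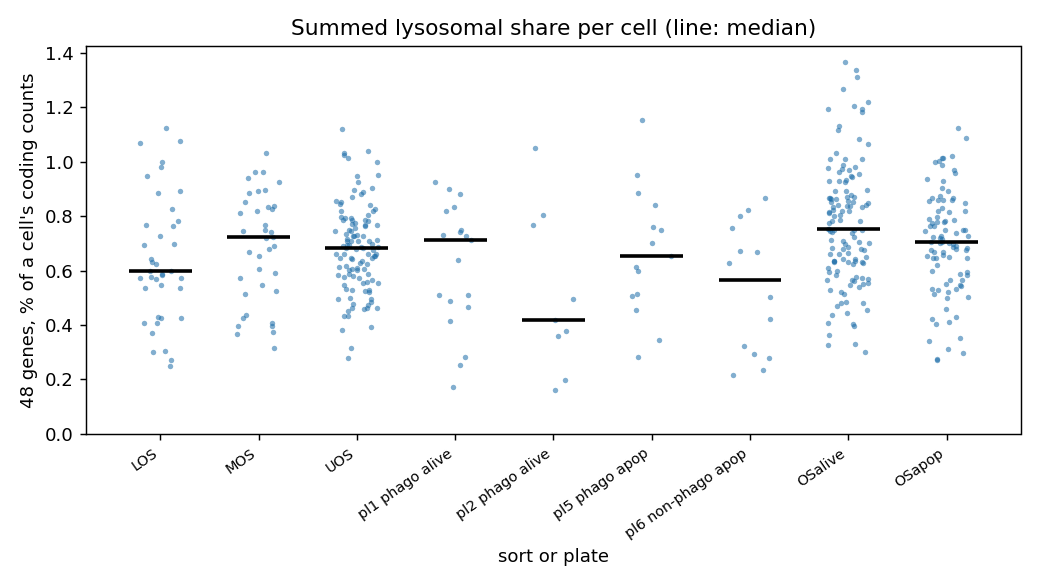
Percent of a cell's coding counts that fell in the 48 lysosomal genes (y axis) for each passing cell (points) of each group (x axis), with the median as a line. The medians of UOS, OSalive and OSapop were 0.683%, 0.752% and 0.704%, and the points of all groups overlap.

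All 48 genes were detected in LOS, UOS, OSalive and OSapop. At 0 were 1 gene in MOS, 1 in plate 1, 5 in plate 2, 6 in plate 5 and 6 in plate 6, the groups with fewer counts. For the 37 genes detected in every group, the highest group exceeded the lowest by 1.93-fold to 218.5-fold, with a median of 3.98-fold. Plate 6 was the lowest group for 15 genes and plate 2 for 11, and plate 2 was also the highest for 11, so that the shallow plates stood at the ends of many orders. UOS was the lowest group for 4 genes, which were Mcoln1, Tpp1, Npc1 and Atp6ap1. Genes were compared with each other by levels per kb of canonical transcript. In UOS the 10 highest were Lamp2, Psap, Laptm4a, Lamp1, Cd63, Rab7, Grn, Atp6ap1, M6pr and Scarb2, from 648.7 CPM per kb for Lamp2 to 48.4 CPM per kb for Scarb2. No hydrolase was among them. The 5 lowest were the hydrolases Gla, Idua, Galc, Manba and Galns, from 1.77 CPM per kb for Gla down to 0.869 CPM per kb for Galns. Lamp2 and Psap held places 1 to 3 in all 9 groups, and Laptm4a held places 2 to 4.

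**Figure D2:**
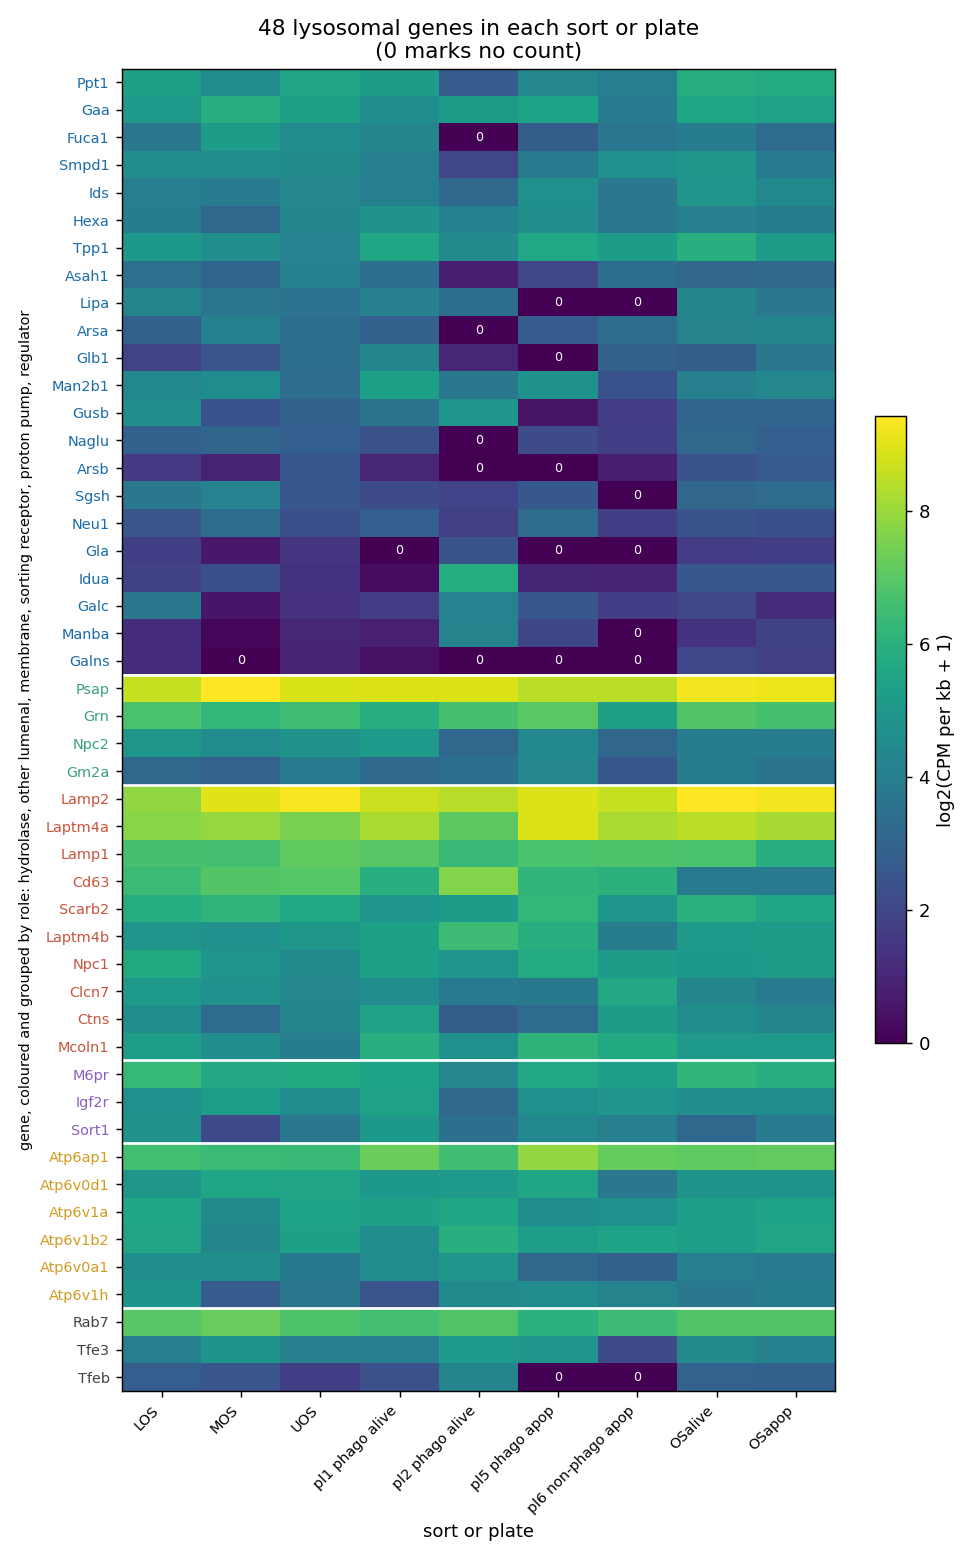
Log2 of CPM per kb plus 1 (colour) for the 48 genes (rows, grouped and coloured by role, ordered by level in UOS) in the 9 groups (columns), with 0 written where a gene had no count. Lamp2, Psap and Laptm4a are bright in all columns, most hydrolases are dark, and Cd63 is darker in OSalive and OSapop than in the other columns.

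The membrane proteins line the lysosome and move its products and ions. Lamp2, a glycoprotein of the limiting membrane with a part in autophagy, stood at 406.5 CPM in LOS, 910.8 in MOS, 1153.4 in UOS, 714.7 in plate 1, 598.1 in plate 2, 869.3 in plate 5, 685.5 in plate 6, 1216.6 in OSalive and 1079.4 in OSapop. It was lowest in LOS and highest in OSalive, where its limits (1206.8 to 1226.6 CPM) did not meet those of UOS (1136.0 to 1171.1 CPM). The median cell stood the other way, at 1193.6 CPM in UOS and 1141.8 CPM in OSalive. The log2 ratio of OSalive to UOS, explained below, was 0.09, and 5 of 9 alternatives kept its sign. Lamp1 (chr8:13209121-13227360, + strand, GRCm39), its close relative, was at 262.3 CPM in LOS, 256.97 in MOS, 356.3 in UOS, 321.9 in plate 1, 208.1 in plate 2, 273.1 in plate 5, 283.3 in plate 6, 275.5 in OSalive and 154.7 in OSapop. OSapop was the lowest of these. The exons of Lamp1 share 2564 bases with Grtp1 on the other strand, and the libraries were not stated to keep the strand, so reads of the 2 genes cannot be told apart.

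Cd63 (chr10:128731528-128748709, + strand, GRCm39), a tetraspanin of late endosomes and lysosomes, stood far lower in the CatVII groups than in the rest. It was at 116.7 CPM in LOS, 165.1 in MOS, 168.2 in UOS, 82.2 in plate 1, 277.5 in plate 2, 101.2 in plate 5, 91.4 in plate 6, 18.5 in OSalive and 19.7 in OSapop. Both CatVII levels lay below the limits of each of the other groups, the nearest being plate 6 (61.7 to 130.5 CPM). The median cell held 153.6 CPM in UOS and 50.7 CPM in plate 6, against 1.54 CPM in OSalive and 0 in OSapop, so the gap was not carried by single cells. At 10000 coding counts per cell, Cd63 was detected in 71.2% of UOS cells, 17.7% of OSalive cells and 17.4% of OSapop cells. Counts assigned to its processed copy Cd63-ps were few, at 1.67 CPM in UOS and 0.272 CPM in OSalive. Per kb, Cd63 took place 5 among the 48 genes in UOS, place 33 in OSalive and place 28 in OSapop.

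Mcoln1 (chr8:3550452-3565253, + strand), the calcium channel mucolipin 1, was at 78 CPM in LOS, 48.6 in MOS, 30.5 in UOS, 123.7 in plate 1, 52.6 in plate 2, 142.5 in plate 5, 106.6 in plate 6, 66.4 in OSalive and 69 in OSapop. All other groups were above UOS, those of AnaVI (LOS and MOS) as well as those of CatVI and CatVII. The limits of plate 2 (33 to 79.7 CPM) met those of UOS (27.7 to 33.5 CPM). Laptm4a, a small protein of the lysosomal membrane, was at 397.9 CPM in LOS, 449.1 in MOS, 339.3 in UOS, 552.9 in plate 1, 239.2 in plate 2, 893.2 in plate 5, 545.3 in plate 6, 639.9 in OSalive and 533.0 in OSapop. Npc1, which exports cholesterol, ranged from 114.8 CPM in UOS to 281.8 CPM in plate 5. Scarb2, Clcn7, Laptm4b and Ctns, the other genes of this role, spanned 2.50-fold to 7.15-fold from their lowest to their highest group.

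Of the lumenal proteins that are not hydrolases, Psap, the precursor of the saposins that present lipids to hydrolases, was the most abundant. It was at 1022.9 CPM in LOS, 1768.8 in MOS, 1259.9 in UOS, 1298.7 in plate 1, 1270.3 in plate 2, 917.2 in plate 5, 929.2 in plate 6, 1636.2 in OSalive and 1552.8 in OSapop. This was the narrowest range of the 37 genes, 1.93-fold. Npc2, which hands cholesterol to NPC1, was at 107.2 CPM in UOS, 59.6 in OSalive and 57.7 in OSapop. Grn, progranulin, was at 206.1 CPM in UOS, 272.8 in OSalive and 237.9 in OSapop, and Gm2a, an activator of ganglioside breakdown, was at 58.4, 63.2 and 47.3 CPM in the same order.

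The hydrolases were each at low levels and summed to 871 CPM in UOS, 1217 CPM in OSalive and 1020 CPM in OSapop, with a lowest sum of 530 CPM in plate 6. Tpp1 (chr7:105394018-105401481, - strand), a tripeptidyl peptidase, was at 112.7 CPM in LOS, 87.1 in MOS, 61.2 in UOS, 160.1 in plate 1, 76.6 in plate 2, 169.7 in plate 5, 124.9 in plate 6, 212.9 in OSalive and 129.2 in OSapop. UOS was lowest and OSalive highest, and the limits of plate 2 (52.4 to 108.1 CPM) met those of UOS (57.2 to 65.3 CPM). A median UOS cell held 28 CPM of Tpp1 and a median OSalive cell 161.9 CPM. Asah1, acid ceramidase, was at 34.2 CPM in LOS, 24 in MOS, 53.4 in UOS, 31.1 in plate 1, 2.39 in plate 2, 9.79 in plate 5, 30.5 in plate 6, 24.6 in OSalive and 27.2 in OSapop, and was thus highest in UOS.

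Glb1, the lysosomal β-galactosidase, was at 6.76 CPM in LOS, 11.4 in MOS, 23.1 in UOS, 45 in plate 1, 2.39 in plate 2, 15.2 in plate 6, 14 in OSalive and 29.2 in OSapop. In plate 5 it had no count, and 3 counts, the floor used for a count of 0, would be 3.26 CPM there. Smpd1, acid sphingomyelinase, was at 53 CPM in UOS, 74.8 in OSalive and 34.3 in OSapop. Some values of the rare hydrolases came from 1 cell. In plate 2 a single cell held all 79 counts of Idua, which cuts glycosaminoglycans, and gave a level with limits of 149.6 to 235.5 CPM, against 0.865 to 17.2 CPM in the other groups. One cell held 97.6% of the Manba counts of plate 2, 85.2% of its Galc counts and 63.2% of the Galc counts of LOS.

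The 3 sorting receptors carry hydrolases to the lysosome. Sort1, sortilin, was at 186.6 CPM in LOS, 22.2 in MOS, 88.4 in UOS, 217.2 in plate 1, 69.4 in plate 2, 140.3 in plate 5, 112.7 in plate 6, 55.2 in OSalive and 92.9 in OSapop. It had the widest range of the 3, and one cell held 67.4% of its counts in LOS and 68.5% in plate 1. M6pr, the small mannose 6-phosphate receptor, ranged from 50.2 CPM in plate 2 to 199.6 CPM in LOS, with 134.3 CPM in UOS and 183.5 CPM in OSalive. Igf2r, the large mannose 6-phosphate receptor, ranged from 71.8 CPM in plate 2 to 365.1 CPM in plate 1, with 202.03 CPM in UOS, 209.1 in OSalive and 222.5 in OSapop. Exons of M6pr share 2646 bases with Phc1 and those of Sort1 share 1760 bases with the non-coding gene Gm12522. In all, 24 of the 48 genes share exon bases with another gene and 15 with a protein-coding one. Cd63, Tpp1, Mcoln1, Lamp2 and Psap share none.

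The proton pump has a membrane sector, to which Atp6v0a1 and Atp6v0d1 belong, and a sector that splits ATP, with Atp6v1a, Atp6v1b2 and Atp6v1h. Atp6ap1 is an accessory subunit. It was at 205.03 CPM in LOS, 184.3 in MOS, 174.5 in UOS, 332.2 in plate 1, 203.3 in plate 2, 516.8 in plate 5, 319.9 in plate 6, 293.4 in OSalive and 311.4 in OSapop. Plate 5 was highest and UOS lowest, and the CatVII levels lay between. The catalytic subunit Atp6v1a ranged only 2.10-fold, from 100.3 CPM in MOS to 210.4 CPM in LOS, with 200 CPM in UOS, 172.3 in OSalive and 199.5 in OSapop. Its partner Atp6v1b2 ranged from 54 CPM in MOS to 169.9 CPM in plate 2, with 112.3, 108.3 and 124.6 CPM in UOS, OSalive and OSapop. Atp6v1h was at 51.7, 52.6 and 62.6 CPM in these 3 groups, between 19 CPM in plate 1 and 117.6 CPM in LOS. Atp6v0a1 was at 53.4, 65.9 and 57.8 CPM, between 27.4 CPM in plate 6 and 122.01 CPM in plate 2. Atp6v0d1 was at 75.6, 47.9 and 48.9 CPM, between 21.3 CPM in plate 6 and 79.4 CPM in plate 5. One cell held 85.9% of the Atp6v1b2 counts of plate 2 and one cell 60.8% of its Atp6v0a1 counts. No single order of groups held for the 6 subunits.

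Of the regulators, Tfeb was rare, at 14 CPM in LOS, 10.8 in MOS, 5.62 in UOS, 9.52 in plate 1, 43.1 in plate 2, 15.8 in OSalive and 15.7 in OSapop. It had no count in plates 5 and 6, where 3 counts, the floor used for a count of 0, would be 3.26 and 9.14 CPM. Its relative Tfe3 was at 51.8 CPM in LOS, 97.3 in MOS, 55.1 in UOS, 52.8 in plate 1, 110.05 in plate 2, 101.2 in plate 5, 12.2 in plate 6, 71.2 in OSalive and 57.2 in OSapop. The plate 2 levels of both rested largely on single cells. One cell held 66.7% of the 18 Tfeb counts there and one cell 78.3% of the Tfe3 counts, and the median cell had no count of either. Rab7, the GTPase of late endosomes that brings them to the lysosome, was at 276.7 CPM in LOS, 330.2 in MOS, 247.2 in UOS, 217.2 in plate 1, 255.98 in plate 2, 140.3 in plate 5, 194.98 in plate 6, 259.99 in OSalive and 259.4 in OSapop. UOS and both CatVII groups differed little in Rab7.

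**Figure D3:**
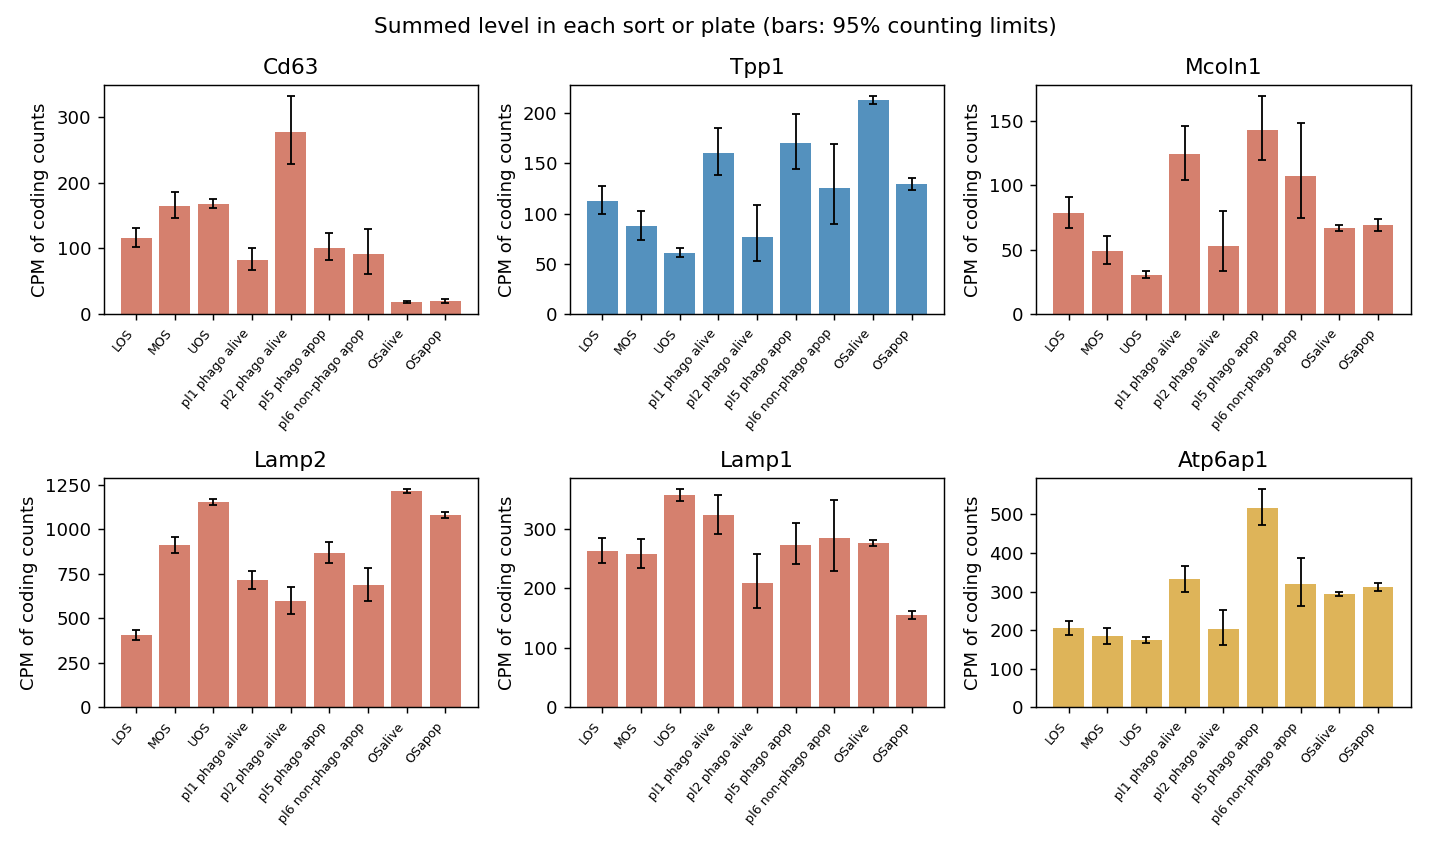
Level in CPM of coding counts (y axes, from 0) of 6 genes in the 9 groups (x axes), with 95% counting limits as error bars. Cd63 stands at 18.5 and 19.7 CPM in OSalive and OSapop against 82.2 CPM or more elsewhere, and UOS is the lowest group for Tpp1, Mcoln1 and Atp6ap1.

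Groups were compared by the log2 ratio of CPM, set so that the median of all coding genes with 100 or more counts over both groups was 0. A gene with no count in a group was set to 3 counts there. A gene is called 2-fold higher or lower at a ratio of 1 or more, or of -1 or less, and the share of all genes past the same line is given as the background. The scaling mattered for the direction of small shifts. On CPM of all gene counts without this centring, the median of all genes moved to -0.35 for OSalive against UOS, -0.30 for MOS against UOS and 0.13 for OSapop against OSalive.

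CatVII against AnaVI asks how the lysosomal genes stood in late regression, with upper ORS cells set against upper-middle ORS cells, so that stage and region cannot be told apart. In OSalive against UOS, most of the genes were moderately higher and Cd63 was far lower. All 48 had enough counts, 35 lay above the median gene, where the background is 50%, and the median of the 48 was 0.35. On CPM of all gene counts the median of the 48 was -0.01, so its sign is relative to the other genes. Past 2-fold were 5 genes higher, against a background of 14% of 12199 genes, and 2 lower, against 19% (32.9% in either direction). The counts of genes past 2-fold were thus no larger than the background, and the shift lay in the many smaller differences. By role, 17 of 22 hydrolases lay above the median gene with a median of 0.47, 7 of 10 membrane proteins (0.25), 3 of 4 other lumenal proteins, 2 of 3 sorting receptors, 3 of 6 pump subunits and 3 of 3 regulators.

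The genes higher by 2-fold were Galns (1.87, limits 1.35 to 2.43), Tpp1 (1.81, 1.71 to 1.91), Idua (1.66, 1.33 to 2.01), Tfeb (1.5, 1.17 to 1.85) and Mcoln1 (1.13, 0.99 to 1.28). Galns, a sulfatase, was very rare, at 2.29 CPM in UOS and 8.30 CPM in OSalive. One cell held 63.6% of its 33 counts in UOS and one cell 40.2% of its counts in OSalive. The median cell of both groups had no count of Galns. Lower were Cd63 (-3.18, limits -3.29 to -3.07) and Asah1 (-1.11, limits -1.24 to -0.97), and the next lowest was Npc2 at -0.84. Cd63 stood among the 2.69% of all genes with the lowest ratios. Its canonical transcript is short, at 1382 bases, and short transcripts were lower in OSalive in general. Over the genes with the shortest transcripts, those under 2694 bases, the median ratio was -0.34, while the 20 lysosomal genes among them had a median of 0.40. The part of transcript length in the value of Cd63 was not tested. Immune markers were at 12.6 CPM in UOS and 101.7 CPM in OSalive, with 10 and 13 of 14 detected. Fibroblast markers were at 1677 and 1136 CPM and those of the inner root sheath and shaft at 4310 and 20.3 CPM. Without the cells in which such markers outnumbered those of the ORS, a choice made after the data were seen, 36 of the 48 lay above the median gene and all 7 genes kept their side of 2-fold.

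**Figure D4:**
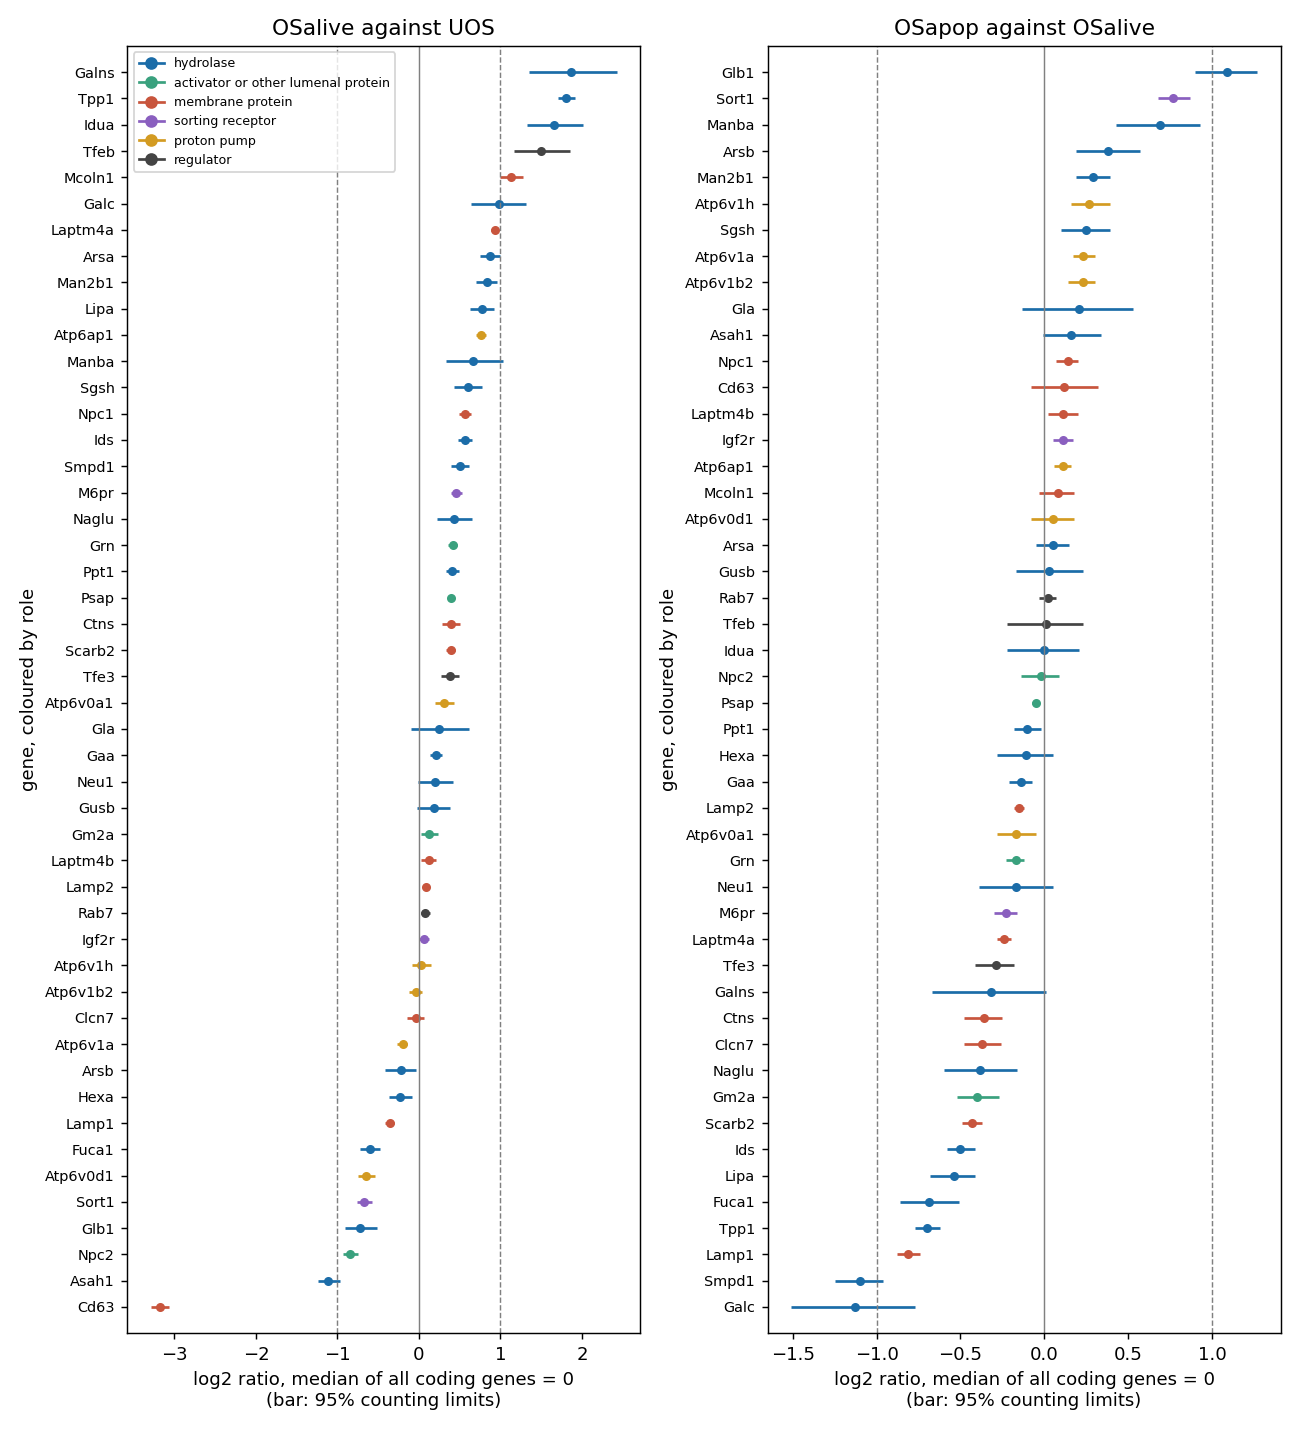
Log2 ratio of each gene (x axes, median of all coding genes at 0, dashed lines at 2-fold) with 95% counting limits as bars, coloured by role, for OSalive against UOS (left) and OSapop against OSalive (right). On the left most genes lie right of 0 and Cd63 lies alone at -3.18, and on the right most genes lie within 2-fold of 0.

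In apoptotic against alive cells at CatVII, the lysosomal genes differed little as a set. Of 48 genes, 22 lay above the median gene, at a background of 50%, and the median was -0.04. It was 0.09 on CPM of all gene counts. Past 2-fold were 1 higher, against a background of 7.77%, and 2 lower, against 11.3% (19.1% in either direction). Glb1 was higher (1.09, limits 0.90 to 1.27), and Galc, which splits galactosylceramide (-1.13, limits -1.51 to -0.77), and Smpd1 (-1.10, limits -1.25 to -0.96) were lower. Galc rested on 70 counts in OSapop, and its ratio was 0.12 as a mean over cells. Glb1 was at 0.42 with all cells at equal depth, and Smpd1 was at -0.84 as a mean over cells. Next in order were Sort1 (0.77), and Manba, which trims mannose from glycoproteins (0.69), on the higher side and Lamp1 (-0.81, limits -0.88 to -0.74) and Tpp1 (-0.70) on the lower. Manba was at -0.70 as a mean over cells, and one cell held 77.8% of its counts in OSapop. Lamp1 kept its sign in all 9 alternatives, from -0.96 to -0.68, and 14.2% of all genes had a ratio as low or lower.

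By role, 5 of 6 pump subunits lay above the median gene in OSapop with a median of 0.17, the highest being Atp6v1h at 0.27 and the lowest Atp6v0a1 at -0.17. Of the membrane proteins 4 of 10 lay above it (-0.20), of the hydrolases 9 of 22 (-0.11) and of the other lumenal proteins 0 of 4 (-0.11). Cd63 (0.12), Tfeb (0.01), Rab7 (0.02) and Mcoln1 (0.08) had limits that included 0. The median absolute ratio of the 48 genes was 0.23, against 0.40 for all genes. Coding counts per passing cell had a median of 364123 in OSalive and 81722 in OSapop.

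At CatVI the phagocytic alive cells of plates 1 and 2 were compared with UOS, which served as the AnaVI reference here as it did for OSalive. Of 46 genes with enough counts, 26 lay above the median gene (background 50%), with a median of 0.16. Past 2-fold were 10 higher, against a background of 18.5%, and 2 lower, against 23.6% (42% in either direction). Mcoln1 (1.95, limits 1.69 to 2.21), Man2b1, an α-mannosidase (1.93, 1.70 to 2.16), and Tpp1 (1.34, 1.12 to 1.56) were among the higher genes. The 3 highest were Idua (3.38), Manba (2.51) and Galc (2.17), which rested on single cells of plate 2 as given above and without plate 1 stood at 5.52, 4.51 and 3.87. The lowest were Arsb, a sulfatase (-2.57, limits -4.20 to -1.33), Asah1 (-1.01) and Arsa, another sulfatase (-0.89). Plate 2 had no count of Arsb or Arsa and 1 count of Asah1, and without plate 2 the ratios were -2.04, -0.53 and -0.37 in the order above. The sign of the median was not stable, at -0.07 on CPM of all gene counts and -0.15 with TMM scaling.

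The 2 plates carry the same label, so their distance shows how far values lay apart with no difference in label. Between plates 1 and 2, 11 of 27 genes differed by 2-fold or more, 7 of them higher and 4 lower in plate 1, against backgrounds of 23.3% and 20.7% (44% in either direction). The median absolute ratio of the 27 was 0.95, larger than that of the 46 genes against UOS (0.57). Ctns, the cystine exporter, was at 119.4 CPM in plate 1 and 16.7 CPM in plate 2, and one cell held 68.8% of its counts in plate 1. Cd63 was at 82.2 and 277.5 CPM. Without plate 1, 22 of 45 genes were past 2-fold against UOS, against 50.2% of all genes, and without plate 2 there were 13 of 42, against 48% of all genes. By summed level, Mcoln1 and Tpp1 were above UOS in both plates. Mcoln1 was at 123.7 and 52.6 CPM against 30.5 CPM, and Tpp1 at 160 and 76.6 CPM against 61.2 CPM. In plate 2, however, 1 cell held 54.5% of the Mcoln1 counts and 1 cell 56.2% of the Tpp1 counts. The median cell of plate 2 held 0 CPM of Mcoln1 and 14.9 CPM of Tpp1, against 0 and 28 CPM in UOS. In plate 1 the median cell held 76.5 and 86.7 CPM. Melanocyte markers stood at 1366 CPM in plate 2 with 8 of 8 detected and at 40.7 CPM in plate 1 with 3 of 8, and all 14 immune markers were at 0 in plate 1, with 62.2 CPM in plate 2. Endothelial markers stood the other way, at 257.8 CPM with 4 of 4 detected in plate 1 and at 2.39 CPM with 1 of 4 in plate 2. Cells with more counts of the markers of other cell types than of ORS markers were 2 of 19 in plate 1 and 3 of 9 in plate 2. They held 6.04% and 29.2% of the coding counts. Without such cells in any group, 6 of the 12 genes past 2-fold against UOS stayed past it, and 9 of the 12 kept their sign. The part of these markers in the differences between the plates was not tested.

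Phagocytic apoptotic cells (plate 5) against phagocytic alive cells gave 31 genes with enough counts, of which 19 lay above the median gene (background 50%), with a median of 0.39. Higher by 2-fold were 6, against a background of 14.6%, and lower 2, against 17.6% (32.2% in either direction). The 3 highest were Atp6v1h (1.48), Scarb2, the receptor that carries β-glucocerebrosidase (1.45, limits 1.20 to 1.70), and Gm2a (1.35). The lowest were Ctns (-1.68), Atp6v0a1 (-1.43) and Atp6v1a (-0.59). In plate 1 a single cell held 68.8% of the Ctns counts and a single cell 50.9% of the Atp6v0a1 counts, and the median cell of plate 1 had no count of either. Without plate 1 the ratio of Atp6v1h was 0.01, and without plate 2 it was 2.44, while Scarb2 was at 1.09 and 1.46. Plate 5 had no count of any immune or endothelial marker. The alive cells of these plates also served as the alive side above, so the 2 comparisons are not independent.

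Among apoptotic cells, the phagocytic plate 5 was compared with the non-phagocytic plate 6, the only pair of plates with passing cells that differ in this label. Only 23 genes had enough counts, and 16 of them lay above the median gene (background 50%), with a median of 0.34. Past 2-fold were 5 higher, against a background of 16.3%, and 1 lower, against 11.7% (28% in either direction). Higher in plate 5 were Man2b1 (2.6, limits 1.43 to 4.07), Laptm4b (1.90, limits 1.08 to 2.85), Gaa, the acid α-glucosidase (1.61, limits 0.86 to 2.46), Grn (1.59, limits 1.05 to 2.17) and Scarb2 (1.26, limits 0.81 to 1.74). Lower was Clcn7, a chloride exchanger (-2.0, limits -2.56 to -1.45), and next were Rab7 (-0.54) and Atp6v1b2 (-0.28). Man2b1 was at 115.3 CPM in plate 5 and 18.3 CPM in plate 6, and Clcn7 at 53.3 and 204.1 CPM. The plate 6 side rested on 6 counts for Man2b1 and 16 for Gaa, with 50% of each in 1 cell. One cell held 65.7% of the Clcn7 counts of plate 6 and one cell 92.3% of its Laptm4b counts, and the median cell of plate 6 had no count of either. The plates held 15 and 14 cells, and these ratios were of the size seen between the 2 plates of the same label.

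Within AnaVI, MOS against UOS gave 43 genes with enough counts, 25 of them above the median gene (background 50%), with a median of 0.24. The median was -0.05 on CPM of all gene counts. Higher by 2-fold were 6, against a background of 11.1%, and lower 3, against 16.4% (27.5% in either direction). The highest were Sgsh, a sulfatase for heparan sulfate (1.92, limits 1.61 to 2.23), Man2b1 (1.49) and Idua (1.45, on 22 counts in MOS, 81.8% of them in 1 cell). The lowest were Arsb (-2.37, on 6 counts in MOS, 83.3% of them in 1 cell), Sort1 (-1.81, limits -2.32 to -1.34) and Hexa, a subunit of β-hexosaminidase (-1.10). Sgsh was at 73.8 CPM in MOS and 22.1 CPM in UOS. Of the pump, Atp6v0a1 was higher (1.12) while Atp6v1h (-0.92), Atp6v1b2 (-0.87) and Atp6v1a (-0.81) were lower, short of 2-fold. Exons of Sgsh share 960 bases with Card14 on the other strand.

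LOS against UOS compares the lower with the upper-middle ORS. Of 45 genes, 28 lay above the median gene (background 50%), with a median of 0.12, which was -0.05 with TMM scaling. Past 2-fold were 9 higher, against a background of 13.4%, and 3 lower, against 14.5% (27.9% in either direction). The highest were Galc (2.95), Gusb, β-glucuronidase (1.78), and Mcoln1 (1.28), and the lowest were Glb1 (-1.85), Lamp2 (-1.58, limits -1.67 to -1.48) and Arsb (-1.46). LOS had the highest sum of the immune, melanocyte, fibroblast and endothelial markers, as given above, with fibroblast markers at 6784 CPM, melanocyte markers at 894.9 CPM and immune markers at 267.2 CPM, against 1677, 98.4 and 12.6 CPM in UOS. Without the cells with more of such markers than of ORS markers, 12 genes were again past 2-fold, 7 of them shared with the full set, and the ratio was 2.85 for Gusb, 1.83 for Mcoln1 and -1.03 for Lamp2. As a mean over cells Gusb was at 0.48 and Mcoln1 at 0.59, short of 2-fold, and one cell held 55.9% of the Gusb counts of LOS. Leaving out the deepest cell of each group gave 2.09 for Galc.

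**Figure D5:**
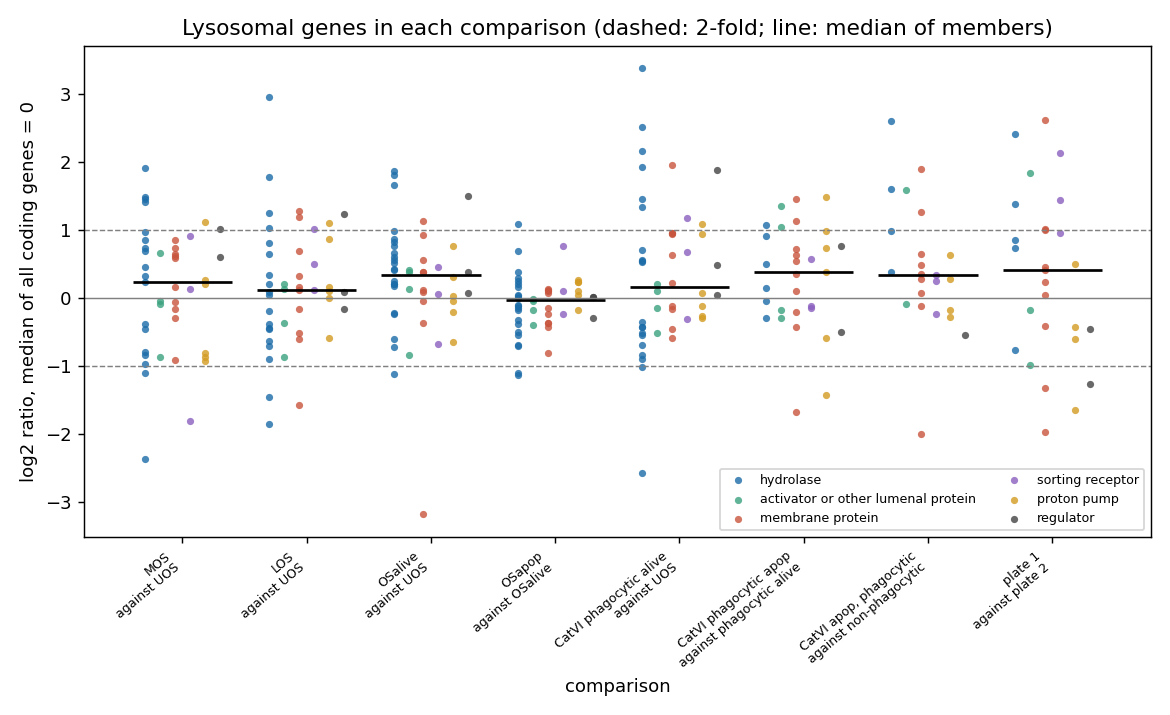
Log2 ratio (y axis, median of all coding genes at 0, dashed lines at 2-fold) of the lysosomal genes with enough counts in each comparison and between plates 1 and 2 of the same label (x axis), coloured by role, with the median as a line. The medians lie between -0.04 and 0.42, and the points between the 2 plates spread as widely as those of most comparisons.

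The 78 other lysosomal genes of 4 lists were counted in the same way. In OSalive against UOS 70 had enough counts, 39 lay above the median gene and the median was 0.15. By 2-fold, 14 were higher and 9 lower, at the backgrounds of 14% and 19% given above. The 19 other hydrolases and lumenal proteins had 14 of 19 above the median gene (0.35) and the other membrane proteins 11 of 15 (0.36). The other pump subunits had 5 of 15 above it (-0.48). The highest of all were Atp6v1b1, a tissue-restricted isoform of the pump (6.52, from 0.764 to 69.7 CPM), and Laptm5, a gene of blood cells (4.43, from 0.486 to 10.4 CPM). The lowest were Lamtor4 (-4.62, from 16.1 to 0.650 CPM) and Lamtor2 (-3.86, from 30.7 to 2.10 CPM), which belong to the complex that holds mTORC1 at the lysosome. Their canonical transcripts are short, at 1059 and 668 bases, and as for Cd63 the part of transcript length was not tested. In OSapop against OSalive 33 of 69 lay above the median gene, the median was -0.04, and 1 was higher and 4 lower by 2-fold, at backgrounds of 7.77% and 11.3%. In MOS and LOS against UOS, 35 and 27 of 63 lay above it, and in the phagocytic alive cells of CatVI 35 of 64.

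The 12 genes with CACGTG in the window were compared with the 28 without it, as a description. In OSalive against UOS, 7 of the 12 lay above the median gene with a median of 0.13, and 23 of the 28 with a median of 0.39. In OSapop against OSalive, 8 of the 12 lay above it (0.06) and 8 of the 28 (-0.16). In the phagocytic alive cells of CatVI against UOS, 5 of 11 (-0.12) and 18 of 28 (0.50) lay above it. Lamp1, with 4 matches, was at -0.36 and -0.81 in the first 2 of these comparisons, and Mcoln1, with 2 matches, at 1.13 and 0.08.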

How the data were processed

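Single cells were sorted into plates and their mRNA was amplified by Smart-seq2 with oligo-dT priming and ERCC spike-ins, and sequenced as paired ends on a NextSeq500. According to the methods and the submitters' processing notes, reads were aligned with STAR 2.6 to mm39, quantified with Salmon 1.4.0 and summed per gene with tximport in R 3.6.1. The authors deposited estimated counts per gene and cell, with no normalization and no filter on cells, and 10.9% of the values above 0 were not whole. A table of cell labels was not used.

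Counts were rounded to whole numbers, and 55335 genes and 92 spike-ins were kept apart. Symbols, positions, biotypes and canonical transcript lengths came from GENCODE vM39 (GRCm39), in which 93.3% of the identifiers were found. The others held 79.2% of the gene counts, so counts were scaled to 1000000 counts of the 21604 protein-coding genes. Groups were taken from sample titles. Of the cells, 1 with conflicting labels was left out of all groups, and 1 sample had no column. Cells with 2000 or more detected genes were summed per group. Limits are exact, at 95%, from the Poisson distribution for levels and from the binomial distribution for ratios. Ratios need 100 counts over both groups. Depth therefore limits the CatVI plates, where 23 to 31 of the 48 genes could be compared with each other.

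The genes, roles and lists were chosen with earlier results of these data known. Genes named are, for each comparison, the 3 highest and 3 lowest, then the 10 highest and 5 lowest per kb in UOS, all pump subunits, sorting receptors and regulators, and at most 2 highest and 2 lowest of the other lysosomal genes. Others were named after their values were seen. The ratio step was tested on simulated counts. Alternatives concerned centring, scaling, count minimum, weight of cells, depth, cell filters, single cells and plates, and 1 was added after the data were seen. Python 3.11.15, numpy 2.4.6, pandas 2.3.3, scipy 1.17.1 and, for TMM factors, edgeR 4.0.16 in R 4.3.3 were used.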

Additional observations from a re-analysis of the deposited data

Results flagged for a closer look

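The 1 cell whose title and stage label name different stages was outside all comparisons. It held 65 counts of the lysosomal genes among 9567 coding counts (0.679%), and 8 of the 48 genes had more than 3 counts, the number that a count of 0 allows. The cells of plates 3 and 4, none of which passed, held 2 such counts of 779 and 0 of 2008.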

How the results depend on the processing

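The number of lysosomal genes past 2-fold and above the median gene stayed within 1.5 times of the value reported in all alternatives run, each with 1 choice changed, except for the following 15 values. On CPM of all gene counts with no centring, the number past 2-fold was 15 for MOS against UOS, 1 for OSapop against OSalive and 5 for plate 5 against the phagocytic alive plates. With no count minimum it was 18 for MOS against UOS, 13 for plate 5 against the alive plates and 20 for plate 5 against plate 6, and the number above the median gene was 17 for LOS against UOS, 17 for the alive CatVI plates against UOS and 35 for plate 5 against plate 6. The last setting admits genes with few counts. At 10000 coding counts per cell, 6 were past 2-fold for LOS and 11 for OSalive against UOS. Without the deepest cell of each group there was 1 for OSapop against OSalive and 5 for plate 5 against the alive plates. With TMM scaling 18 lay above the median gene for LOS against UOS. Without plate 1, 22 were past 2-fold for the alive CatVI plates against UOS. The cause was not tested. The alternative added after the data were seen, which leaves out cells rich in markers of other cell types, kept all 14 counts within 1.5 times. In this alternative the genes behind the counts were not always the same. Of the 12 genes past 2-fold in the main setting, 6 stayed past it for the alive CatVI plates against UOS and 7 for LOS against UOS. In the same alternative all 7 stayed for OSalive against UOS and all 6 for plate 5 against plate 6. At 10000 coding counts per cell, however, 6 of these 7 and 3 of these 6 stayed past 2-fold. Galc in OSapop against OSalive changed sign, to 0.12 as a mean over cells and 0.27 at equal depth. No paired analysis was possible because each group is 1 pool of animals and the numbers given to cells only name them. With under 100 counts over both groups, 25 genes could not be compared between plates 5 and 6.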
